A study of Homo sapiens with 8 samples.

Results

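TRAF1, TNFAIP2, TNFAIP3, TNIP1, BIRC3, CFLAR, MIR155HG and EBI3 are genes that NF-kB switches on in B cells transformed by Epstein-Barr virus. They were followed in a human lymphoblastoid cell line, a B cell line that this virus keeps growing, before and after exposure to hexavalent chromium. The 8 genes were picked by symbol out of the 23710 genes in the count tables, and all 8 passed the filter on low counts. They were picked as known NF-kB targets with earlier results of these libraries in view, among them lower levels of NF-kB targets 3 and 7 days post treatment. Their later levels against control are therefore a description without a test. From control to the later groups, 7 of the 8 stood lower in every later library, and TNIP1 did not. Over all genes tested, 7.43% had every library at 3 and 7 days below every earlier one.

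NF-kB is a family of paired transcription factors that inhibitor proteins of the IkB family hold in the cytoplasm. Receptors of the TNF family release it, by a canonical route through the IKK kinases that frees RELA and REL, and by a non-canonical route in which the NFKB2 product is trimmed to its active form. In lymphoblastoid cells the viral membrane protein LMP1 acts like a CD40 receptor that never switches off, so NF-kB is active throughout growth. Its target genes include brakes on the pathway itself, blockers of cell death, signalling adaptors, a cytokine subunit and the primary transcript of miR-155.

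RNA was sequenced from 1 cell line in 8 libraries, labelled as 2 biological replicates in each of 4 groups: control cells without chromium, cells at 24 h of treatment with 5 µM hexavalent chromium (Cr6), and cells 3 days and 7 days post treatment. All groups were grown in standard RPMI medium and carry the same Epstein-Barr virus transformation. The sample labels count days post treatment, whereas the design text counts from the onset of exposure, so the starting point of the days is not settled. The control was taken prior to exposure and no untreated culture of the later days was analysed here, so chromium and time in culture cannot be told apart. Because RNA was measured in bulk, fewer cells expressing a gene and less RNA per cell cannot be told apart either.

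Counts assigned to genes ranged from 9478459 to 11110830 per library. Libraries resembled each other across the labels. Control replicate 1 and 24 h replicate 2 were a close pair, as were control replicate 2 and 24 h replicate 1 (chi-square per degree of freedom 5.87 and 6.17, against 22.6 between the control libraries and 25.9 between those at 24 h). The 3 and 7 day libraries of the same number were close too (4.33 and 5.39, against 88.4 and 73.1 within those groups). Replicate 1 at 3 and at 7 days stood apart, with 12.5% of counts in the 20 highest genes against 8.88% to 9.65% elsewhere. The labelled cell type was borne out by its markers: 9 of 9 B cell genes reached 10 CPM, whereas 0 of 8 T and NK cell genes, 0 of 7 stromal, endothelial or epithelial genes and 0 of 4 erythroid genes did, with CD3D, CD3G, CD8A and all 4 erythroid genes at 0. Of 8 myeloid genes only the integrin gene ITGAM did. P-values measure the spread between these libraries of 1 cell line. CPM is a read count scaled to a common library size that was adjusted by the TMM method. It compares libraries within a gene and not genes with each other, since gene length is not taken out.

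The stretches of DNA before the start sites are shown because they carry the letters that NF-kB dimers are known to bind, in TNFAIP3, BIRC3, CFLAR and EBI3, which stood lower later, and also in TNIP1, which did not. Sequences are from RefSeq (GRCh38.p14), 250 bases before an annotated start, 5′ to 3′ on the gene's strand. Capitals mark matches to the kB consensus, or, in MIR155HG, which has none, a match to TGANTCA, the core letters for AP-1 factors.
TNFAIP3 (chr6:137867009-137867258, plus strand): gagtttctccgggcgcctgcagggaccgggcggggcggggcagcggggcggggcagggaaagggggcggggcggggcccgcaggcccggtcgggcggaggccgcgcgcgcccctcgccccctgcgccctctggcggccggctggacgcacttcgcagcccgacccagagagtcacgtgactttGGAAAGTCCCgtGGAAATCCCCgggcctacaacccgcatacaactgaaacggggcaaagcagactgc
BIRC3 (chr11:102317234-102317483, plus strand): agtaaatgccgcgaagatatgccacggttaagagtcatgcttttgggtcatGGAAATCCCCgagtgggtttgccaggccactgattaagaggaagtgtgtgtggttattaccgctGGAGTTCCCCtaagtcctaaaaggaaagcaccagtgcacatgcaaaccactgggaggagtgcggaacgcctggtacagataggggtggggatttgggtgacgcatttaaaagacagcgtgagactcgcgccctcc
TNIP1 (chr5:151081035-151081284, minus strand): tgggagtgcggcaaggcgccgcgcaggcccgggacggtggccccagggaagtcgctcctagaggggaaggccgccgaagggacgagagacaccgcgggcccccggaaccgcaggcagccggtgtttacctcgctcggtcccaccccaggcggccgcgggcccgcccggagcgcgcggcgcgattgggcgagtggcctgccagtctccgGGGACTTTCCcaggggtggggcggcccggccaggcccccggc
CFLAR (chr2:201118466-201118715, plus strand): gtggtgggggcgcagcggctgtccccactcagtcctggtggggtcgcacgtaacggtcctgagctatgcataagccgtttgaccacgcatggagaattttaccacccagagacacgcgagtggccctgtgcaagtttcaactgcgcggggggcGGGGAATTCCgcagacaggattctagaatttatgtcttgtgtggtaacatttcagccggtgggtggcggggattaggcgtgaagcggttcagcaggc
EBI3 (chr19:4229273-4229522, plus strand): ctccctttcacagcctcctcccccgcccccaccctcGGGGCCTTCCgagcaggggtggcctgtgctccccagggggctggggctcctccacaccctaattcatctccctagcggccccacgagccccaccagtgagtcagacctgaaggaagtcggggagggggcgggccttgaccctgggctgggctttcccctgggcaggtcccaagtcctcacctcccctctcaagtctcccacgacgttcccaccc
MIR155HG (chr21:25561895-25562144, plus strand): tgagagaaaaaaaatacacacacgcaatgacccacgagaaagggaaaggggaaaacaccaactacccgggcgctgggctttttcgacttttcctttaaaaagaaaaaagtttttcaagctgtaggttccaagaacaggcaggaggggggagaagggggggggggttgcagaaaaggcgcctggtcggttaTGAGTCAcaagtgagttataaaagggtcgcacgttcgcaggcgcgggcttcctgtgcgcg

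The kB consensus was searched on both strands in windows of 300 bases around annotated starts, from 250 before to 50 after. It was found in 5 of the 14 windows of the 8 genes, 1 window each for TNFAIP3, TNIP1, BIRC3, CFLAR and EBI3. Over all 35114 windows of the table, 11.3% held it. TNFAIP3 had matches at bases -67 to -58 and -55 to -46 from its start, and BIRC3 at -199 to -190 and -135 to -126. The match GGAAATCCCC, which is the consensus read on the other strand, occurred in both TNFAIP3 and BIRC3. TNIP1 held GGGACTTTCC at -42 to -33, CFLAR held GGGGAATTCC at -97 to -88 and EBI3 held GGGGCCTTCC at -214 to -205. The 3 windows of TRAF1, the window of TNFAIP2 and that of MIR155HG held none, which says only that these letters are not in these windows. A looser pattern that contains the kB consensus, 3 G followed by any 5 bases and 2 C, was in 12 of the 14 windows and in 58.7% of all windows. TGANTCA, read alike on both strands and overlapping no kB match, was in 3 of the 14 windows and in 7.71% of all: in MIR155HG at -60 to -54, in EBI3 at -118 to -112 and in the third CFLAR window at -160 to -154. A match is a description of letters and not a measured binding site.

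MIR155HG is the host transcript of miR-155, and its mature products are shown with the seed, bases 2 to 8, in capitals (RefSeq, GRCh38.p14). The seeds of the arms differ. Only the long host transcript was counted here: the entry for the microRNA gene itself held 0 counts in every library, and mature microRNAs are not captured by poly-A selection.
hsa-miR-155-5p: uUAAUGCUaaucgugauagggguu
hsa-miR-155-3p: cUCCUACAuauuagcauuaaca

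TRAF1 encodes an adaptor that binds TNF family receptors and TRAF2. It stood at 195 and 167 CPM in control replicates 1 and 2, 182 and 181 at 24 h, 89.1 and 103 at 3 days, and 88.0 and 101 at 7 days. All 4 later libraries lay below all 4 earlier ones, with the highest later library at 61.6% of the lowest earlier one. The log2 fold change against control was -0.91 ± 0.20 (SE) at 3 days and -0.94 ± 0.20 at 7 days, or 53.1% and 52.2% of control. The later libraries of the same number nearly coincided, and replicate 2 was the higher of each pair.

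TNFAIP2, which encodes a protein of the exocyst-related family that promotes thin membrane tubes between cells, had the lowest counts of the 8 (132 to 417). It stood at 31.4 and 31.5 CPM in control, 41.9 and 32.1 at 24 h, 17.4 and 13.6 at 3 days, and 14.6 and 14.1 at 7 days. The groups again did not overlap: the highest later library was at 55.4% of the lowest earlier one, the widest gap among the 8 genes. The log2 fold change was -1.02 ± 0.25 at 3 days and -1.13 ± 0.25 at 7 days.

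**Figure D1:**
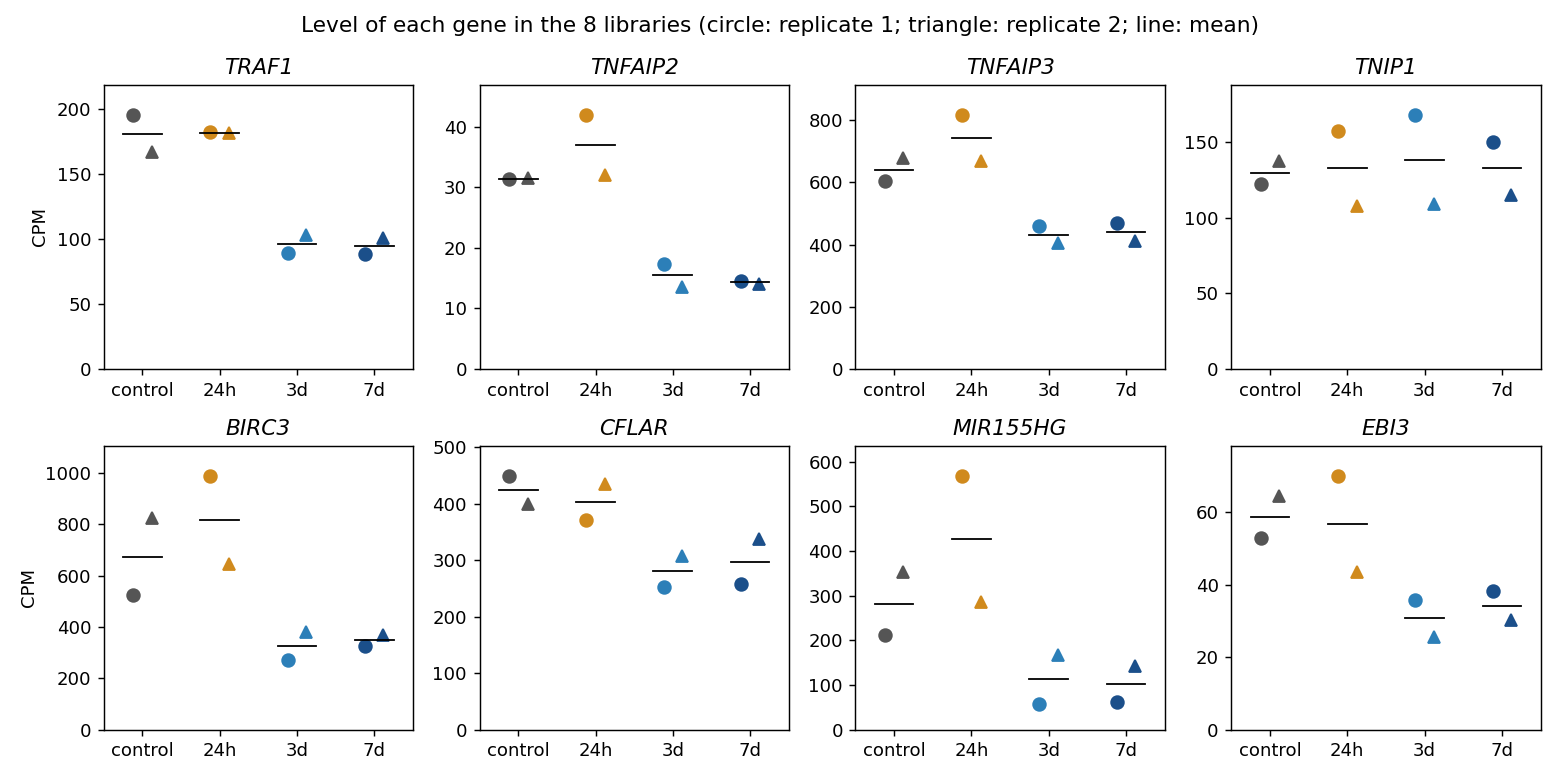
Level of each of the 8 genes in CPM (y axis, from 0, own scale per gene) in control cells, at 24 h of chromium and 3 and 7 days post treatment (x axis). Circles are replicate 1, triangles replicate 2 and lines the mean of 2 libraries; in every panel but that of TNIP1 the 4 later points lie below the 4 earlier ones.

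TNFAIP3 and TNIP1 are brakes on the pathway. TNFAIP3 encodes A20, an enzyme that edits ubiquitin chains on signalling proteins and so shuts NF-kB signalling down, and TNIP1 encodes ABIN-1, a ubiquitin-binding partner of A20. TNFAIP3 stood at 603 and 679 CPM in control, 815 and 669 at 24 h, 458 and 404 at 3 days, and 469 and 413 at 7 days. The later libraries lay below the earlier ones, and the difference was moderate, with log2 fold changes of -0.57 ± 0.22 at 3 days and -0.54 ± 0.22 at 7 days (67.3% and 68.8% of control).

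TNIP1 went its own way. Its levels were 122 and 137 CPM in control, 157 and 108 at 24 h, 168 and 109 at 3 days, and 150 and 115 at 7 days. Every group overlapped every other, and the log2 fold change against control was 0.09 ± 0.29 at 3 days and 0.03 ± 0.29 at 7 days. Within each later group replicate 1 was the higher library, and the sign depended on it: without replicate 1 of the group the fold change was -0.25 at 3 days and -0.17 at 7 days, and without replicate 2 it was 0.37 and 0.23. Thus the partners in the A20 complex differed in level: TNFAIP3 separated the later from the earlier libraries and TNIP1 did not, a difference between them that was not tested.

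BIRC3 and CFLAR act against cell death. BIRC3 encodes cIAP2, a ubiquitin ligase recruited with TRAF2 to TNF receptors. It stood at 526 and 823 CPM in control, 987 and 643 at 24 h, 270 and 379 at 3 days, and 327 and 370 at 7 days. The earlier libraries were spread widely, yet the highest later library was at 72.0% of the lowest earlier one. The log2 fold change was -1.06 ± 0.32 at 3 days and -0.95 ± 0.32 at 7 days. It rested in part on 1 control library: without control replicate 2 it was -0.70 and -0.59.

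CFLAR encodes cFLIP, which resembles caspase-8 and blocks its activation at death receptors. Its levels were 448 and 399 CPM in control, 370 and 434 at 24 h, 253 and 307 at 3 days, and 258 and 336 at 7 days. The later libraries lay below the earlier ones by the narrowest gap among the 7 genes, at 90.9% of the lowest earlier library. The log2 fold change was -0.60 ± 0.23 at 3 days and -0.51 ± 0.23 at 7 days, and -0.33 at 7 days without 7 day replicate 1.

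MIR155HG, a noncoding transcript from which miR-155 is cut, varied most, by 9.69-fold between its highest and lowest library. It stood at 212 and 353 CPM in control, 568 and 285 at 24 h, 58.6 and 167 at 3 days, and 61.3 and 142 at 7 days. All later libraries lay below all earlier ones. Replicate 1 reached 20.7% and 21.7% of the control mean at 3 and 7 days, and replicate 2 reached 59.0% and 50.3%. The log2 fold change was therefore imprecise, at -1.33 ± 0.60 and -1.47 ± 0.60. Without replicate 1 of the group it was -0.76 at 3 days and -0.99 at 7 days, and without replicate 2 it was -2.27 and -2.19. Leaving out control replicate 2 gave -0.91 and -1.06.

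EBI3, first found in cells infected with Epstein-Barr virus, encodes the subunit shared by the cytokines IL-27 and IL-35. It stood at 52.8 and 64.6 CPM in control, 70.0 and 43.6 at 24 h, 35.8 and 25.7 at 3 days, and 38.2 and 30.3 at 7 days. The lowest earlier library, 24 h replicate 2, was close to the highest later one, which stood at 87.6% of it. The log2 fold change was -0.93 ± 0.30 at 3 days and -0.78 ± 0.30 at 7 days.

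For 7 of the 8 genes both 3 day libraries lay below both control libraries, and the same count held at 7 days and for the 4 later against the 4 earlier libraries. Over all 12536 genes tested these shares were 17.2% at 3 days, 17.9% at 7 days and 7.43% for 4 against 4. In the opposite direction, which 0 of the 8 genes took, they were 16.7%, 16.6% and 5.93%. Since the genes were chosen with these differences known, the counts describe them and support nothing further. The median log2 fold change of the 8 genes was -0.92 at 3 days and -0.86 at 7 days, beside 0.01 and 0.00 over all genes tested. edgeR's quasi-likelihood test called 0% of genes at either time, none of the 8 included, at an adjusted p under 0.05. DESeq2 called 9 genes at 3 days and 15 at 7 days and limma-voom 0 at each, again with none of the 8. edgeR gave 663 and 619 of the 12536 genes an unadjusted p under 0.05. The same fit gave 22 for 24 h against control and 31 for 7 against 3 days. How many genes pass where none differs is therefore not known for this fit, and nothing is drawn from these counts. The comparisons at 3 and 7 days share the control libraries, and the later libraries resemble each other by number, so that the later days do not repeat each other independently.

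**Figure D2:**
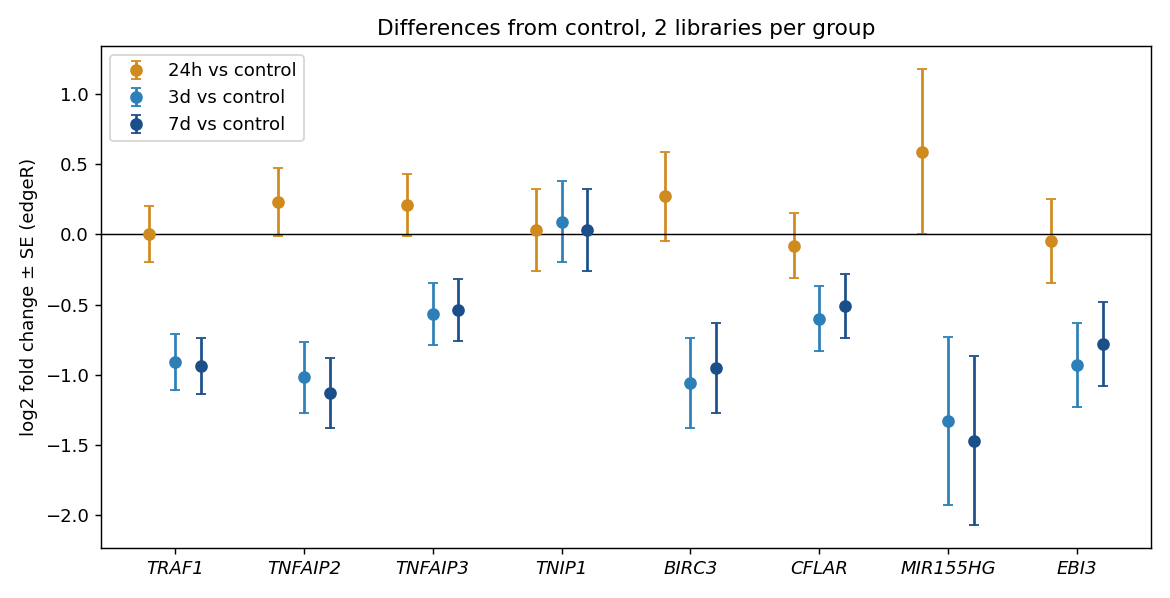
Log2 fold change against control with its standard error (y axis, edgeR, 2 libraries per group) for the 8 genes (x axis) at 24 h, 3 days and 7 days. At 3 and 7 days 7 genes lie between -0.51 and -1.47 and TNIP1 at 0.09 and 0.03; at 24 h the values run from -0.08 to 0.59.

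The comparison of 24 h with control asks what had altered by the end of the exposure. No gene of the 8 passed the test in edgeR (adjusted p = 1 for each), and 0% of all genes did, with 22 genes at an unadjusted p under 0.05 and 0 called by DESeq2 or limma-voom. The fold changes had wide errors. MIR155HG had the largest, 0.59 ± 0.59 on the log2 scale, followed by BIRC3 at 0.27 ± 0.32, TNFAIP2 at 0.23 ± 0.24 and TNFAIP3 at 0.21 ± 0.22. TRAF1 was at 0.00 ± 0.20, TNIP1 at 0.03 ± 0.29, EBI3 at -0.05 ± 0.30 and CFLAR at -0.08 ± 0.23. The library 24 h replicate 1 held the highest level of the 8 for TNFAIP2, TNFAIP3, BIRC3, MIR155HG and EBI3, and the values moved with single libraries of both groups. MIR155HG was at 0.01 without 24 h replicate 1, 1.01 without 24 h replicate 2, 0.27 without control replicate 1 and 1.01 without control replicate 2. BIRC3 was at -0.07, 0.55, -0.01 and 0.63 in the same order. TRAF1 was at 0.00 and 0.01 without the 24 h libraries in turn and at 0.12 and -0.10 without control replicates 1 and 2. TNFAIP2 ran from 0.03 without 24 h replicate 1 to 0.41 without 24 h replicate 2. Only TNFAIP2 had both 24 h libraries above both controls, 1 of 8 beside 11.4% of all genes, and none of the 8 had both below (12.5% of all genes).

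The comparison of 7 with 3 days asks whether levels moved between the later times. They differed little: the log2 fold changes lay from -0.15 (MIR155HG, ± 0.59) to 0.16 (EBI3, ± 0.30), and the adjusted p was 1 for each of the 8 in edgeR, as it was for TRAF1 at -0.02 ± 0.20. Over all genes 0% were called, with 31 of 12536 at an unadjusted p under 0.05 and 0 called by DESeq2 or limma-voom. The test set the differences against the gaps between replicates of a group, although same-numbered libraries were close. It could therefore hardly show a small shift, and no absence of movement follows from it. The same holds for 24 h against control, where the close pairs cross the replicate numbers. No gene of the 8 had groups that did not overlap, beside 6.41% of all genes below and 5.24% above. Of the 8, 4 were lower at 7 than at 3 days, beside 50.4% of all genes. In order of mean level, control and 24 h thus stood above 3 and 7 days for TRAF1, TNFAIP2, TNFAIP3, BIRC3, CFLAR, MIR155HG and EBI3. Within the earlier and within the later pair of groups the order did not exceed the spread between libraries, except that both 24 h libraries of TNFAIP2 lay above both controls.

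The 8 genes split by replicate. At both 3 and 7 days, TRAF1, BIRC3, CFLAR and MIR155HG were higher in replicate 2, and TNFAIP2, TNFAIP3, TNIP1 and EBI3 were higher in replicate 1. That is 4 of 8 in each direction, beside 42.1% and 41.6% of all genes. The gap was widest for MIR155HG, 2.84-fold at 3 days and 2.32-fold at 7 days. For TNFAIP2 it was 0.781-fold and 0.965-fold (replicate 2 over replicate 1). Among the earlier libraries, TNFAIP2, TNFAIP3, TNIP1, BIRC3, MIR155HG and EBI3 were higher in control replicate 2 and in 24 h replicate 1, the close pair described above. CFLAR was higher in the other close pair, and TRAF1 was higher in replicate 1 in control and nearly equal at 24 h. TNFAIP2, counted with the first pair, was nearly equal in control, at 31.4 and 31.5 CPM. Such a split along the first pair was found for 36.4% of all genes, and its reverse for 38.6%. The part of replicate in the levels was not tested. Leaving out replicate 1 at both later times, an alternative chosen after seeing the data, gave medians over the 8 genes of -0.78 at 3 days and -0.85 at 7 days. Leaving out replicate 2 at both gave -0.79 and -0.86. That the 7 genes stay separated with either replicate left out is no further result, since each of the 4 later libraries lay below all earlier ones.

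**Figure D3:**
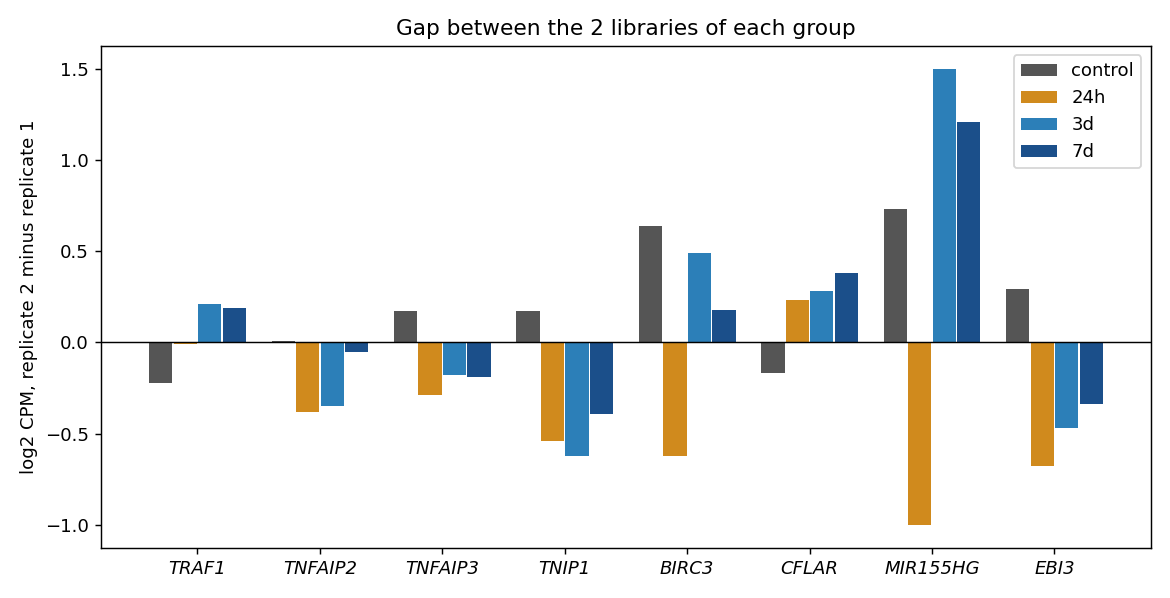
Difference in log2 CPM between replicate 2 and replicate 1 (y axis) of each group (colours) for the 8 genes (x axis). MIR155HG has the widest bars, with replicate 2 at 0.502-fold of replicate 1 at 24 h and 2.84-fold at 3 days, and 4 genes point up and 4 point down at both later times.

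Over the 8 libraries, Pearson's r of log2 CPM between the genes was above 0 in 24 of 28 pairs, with a median of 0.80. All but TNIP1 share the step between earlier and later libraries, which these values contain, so they are given as a description. TNFAIP2 and TNFAIP3 were the closest pair (r = 0.98, Spearman's rho 0.95), then BIRC3 and MIR155HG (r = 0.96, rho 1.00). TNIP1 ran from r = -0.50 with CFLAR to 0.40 with EBI3. Among 9296 other genes with a mean of at least 5 CPM, those most like the mean standardised profile of the 8 were CD80 (r = 0.992, rho 0.86), FMNL3 (0.992, 0.98), ANKRD20A9P (0.991, 0.81), TC2N (0.985, 0.81) and RNF180 (0.982, 0.79), over 8 libraries. CD80 encodes a costimulatory ligand for T cells and FMNL3 a formin that builds actin filaments. ANKRD20A9P is a pseudogene of a family of near-identical copies, so its count is uncertain. Most like TRAF1 alone were ARHGEF11 (r = 0.990), PPARGC1B (0.987) and LNX1 (0.986). FMNL3 (0.987), CD80 (0.984) and the integrin gene ITGA1 (0.980) were most like TNFAIP2.

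In control cells the genes ranked differently once length was taken out (CPM per kb of the union of exons in GENCODE 29 on GRCh38, an annotation that need not be the one counted). MIR155HG had 176 CPM per kb, TNFAIP3 127, BIRC3 89.7, EBI3 45.7, TRAF1 28.0, TNIP1 22.4, CFLAR 18.8 and TNFAIP2 6.25. In control replicates 1 and 2 the values were 133 and 220 for MIR155HG and 119 and 134 for TNFAIP3. MIR155HG was thus the higher of these neighbours in each control library, by a margin that differed between the libraries. The CFLAR value is a low estimate for any single transcript, since its union of exons was 22.53 kb.

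Other genes of the pathway, from lists drawn up with earlier results known, had 0 members called at 3 or 7 days in edgeR, so their values are descriptions too. Of 11 NF-kB subunits and inhibitors, 9 were lower at 3 days and 9 at 7 days (medians -0.33 and -0.61 on the log2 scale, beside 0.01 and 0.00 over all genes), where 48.8% and 49.9% of all genes were lower. The inhibitor gene NFKBIA, itself an NF-kB target, had 234 and 332 CPM in control, 395 and 240 at 24 h, 224 and 162 at 3 days, and 223 and 146 at 7 days. NFKB1, which encodes the p50 subunit and its precursor, went from 230 and 253 CPM in control to 204 and 208 at 3 days (log2 fold change -0.23). Of 12 tested receptors and ligands that feed the pathway, 7 were lower and 5 higher at each time (medians -0.65 and -0.70), and 6 had the later libraries below the earlier ones. Both NFKBIA and NFKB1 had all later libraries below all earlier ones, as did 5 of the 11, beside 7.43% of all genes. LTA, the lymphotoxin alpha gene, stood at 291 and 532 CPM in control and 87.4 and 106 at 3 days (-2.09), and TNFRSF17, the BCMA receptor gene, at 559 and 311 and then 478 and 513 (0.19).

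Other members of these lists had all later libraries below all earlier ones; they fall outside the naming rule and were chosen after their values were seen. NFKB2, the subunit of the non-canonical route, stood at 147 and 151 CPM in control, 155 and 128 at 24 h, 73.6 and 78.5 at 3 days, and 74.9 and 76.0 at 7 days. Its log2 fold change, -0.97 ± 0.20 at 3 days and -0.98 ± 0.20 at 7 days, was close to that of TRAF1. REL, the c-Rel subunit, was at -0.82 ± 0.26 and -0.76 ± 0.26. Among receptors, CD40, which LMP1 resembles in action, had 42.4 and 55.1 CPM in control, 64.4 and 36.9 at 24 h, 26.8 and 29.4 at 3 days, and 20.9 and 29.4 at 7 days. TNF, the cytokine gene, was at -0.76 ± 0.27 and -0.96 ± 0.27.

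Genes that act between receptors and NF-kB differed in direction. Among 18 adaptors and kinases, 10 were lower at 3 days and 8 at 7 days, with medians of -0.08 and 0.06. All later libraries lay below all earlier ones for 2 of the 18 and above them for 1, beside 7.43% and 5.93% of all genes. BIRC2, the close relative of BIRC3, was at -0.33 and -0.25, with 131 and 185 CPM in control and 110 and 141 at 3 days. Among 13 ubiquitin editors that work beside A20 and ABIN-1, 8 were lower at each time, with medians of -0.10 and -0.05. CYLD, a deubiquitinase that also restrains NF-kB, was at -0.40 and -0.34, and OTULIN (FAM105B in the tables), which removes linear ubiquitin chains, at 0.08 and -0.05.

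Among 12 genes of the death receptor pathway on which cFLIP and cIAP2 act, 12 were higher at 3 days and 9 at 7 days (medians 0.31 and 0.25), and 0 were called. Thus 0 and 3 were lower, beside 48.8% and 49.9% of all genes. Both later libraries lay above both controls for 2 of the 12 at 3 days and 2 at 7 days, beside 16.7% and 16.6%. TNFRSF10B, a TRAIL receptor gene, had 202 and 228 in control but 472 and 179 at 3 days and 429 and 179 at 7 days, so that its mean difference (0.60 and 0.50) lay in replicate 1, with replicate 2 below both controls. FADD, outside the naming rule, was the 1 gene of the 12 with all later libraries above all earlier ones, beside 5.93% of all genes.

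Among 20 other NF-kB targets, 19 were lower at each time, with medians of -0.33 and -0.38, smaller than those of the 8 genes; the lists were not compared by a test. In 7 of the 20 the later libraries lay below all earlier ones, beside 7.43% of all genes. CCL22, a chemokine gene, and BCL2A1, an anti-death relative of BCL2, are outside the naming rule. Both were chosen from these 7 after their values were seen, and the rest of the 20 did not separate in this way. CCL22 stood at 725 and 534 CPM in control, 552 and 617 at 24 h, 254 and 195 at 3 days, and 257 and 203 at 7 days. BCL2A1 was at -0.74 ± 0.28 and -0.94 ± 0.28. IRF4, a B cell transcription factor and the most abundant of them, was at -0.09 and -0.08, and PLEK at -0.32 and -0.27. Of 8 tested partners of EBI3 and its signalling, 7 were lower at 3 days and 8 at 7 days (medians -0.19 and -0.28). Over all genes tested, 48.8% were lower at 3 days and 49.9% at 7 days. All later libraries lay below all earlier ones for 3 of the 8 partners, beside 7.43% of all genes. STAT3 was at -0.11 and -0.07. IL27, whose product pairs with EBI3 to make IL-27, did not pass the filter on counts and had 0.264 CPM or less in every library.

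Known targets of miR-155, which it represses, were also considered. Of 12 tested, 8 were lower at 3 days and 9 at 7 days (medians -0.09 and -0.14), beside 48.8% and 49.9% of all genes. All later libraries lay above all earlier ones for 0 of the 12, beside 5.93% of all genes. INPP5D, the SHIP1 phosphatase gene, was at -0.18 and -0.14, and TP53INP1 at 0.14 and 0.09. Among 11 exocyst and RAL genes around TNFAIP2, 6 were lower and 5 higher at each time, with medians of -0.15 and -0.05. EXOC5 was at -0.21 and -0.08, and EXOC2 at -0.65 and -0.42.

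**Figure D4:**
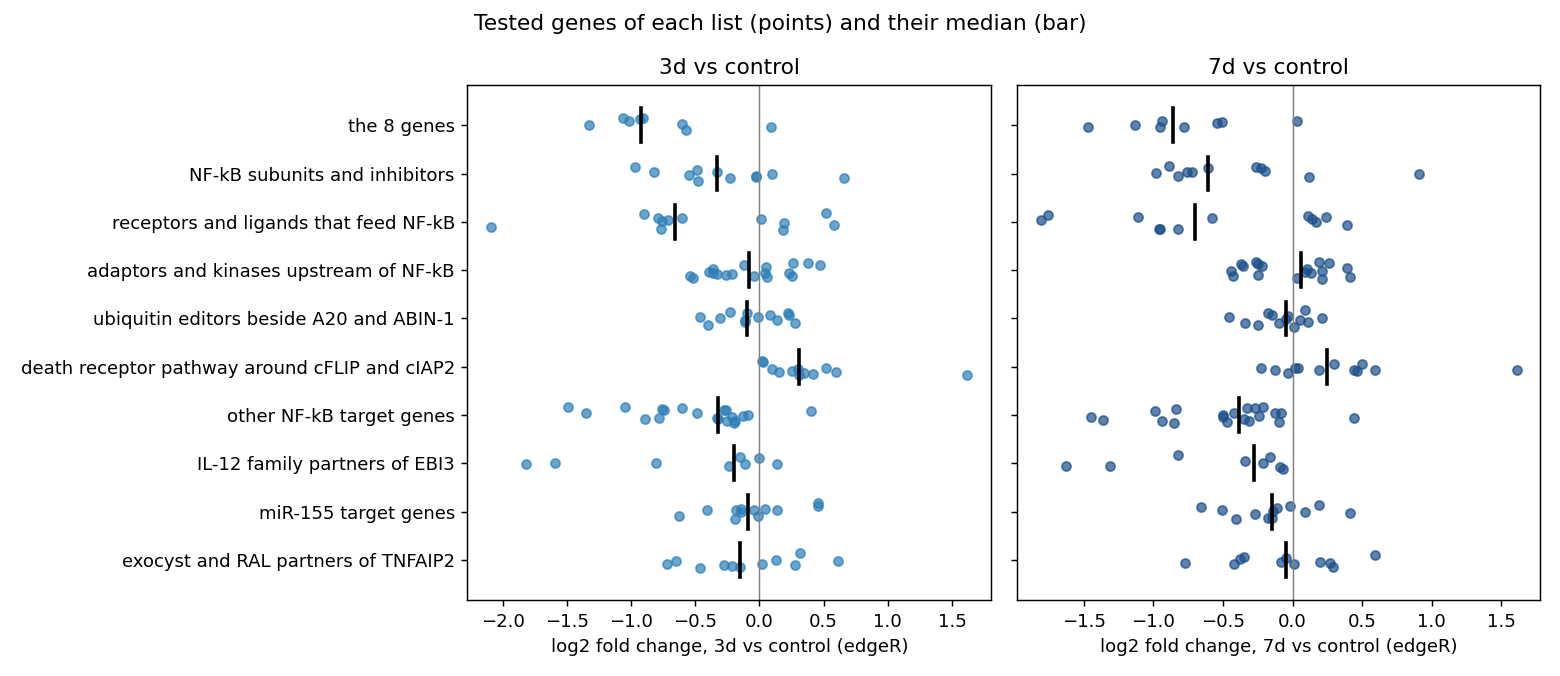
Log2 fold change against control (x axis, edgeR) of the 8 genes and of every tested gene in 9 related lists (rows) at 3 days (left) and 7 days (right); points are genes and bars medians. The 8 genes have medians of -0.92 and -0.86, adaptors and kinases of -0.08 and 0.06, and death receptor genes of 0.31 and 0.25.

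Among markers of B and plasma cells, some separated the later from the earlier libraries and most did not. MS4A1, the gene of the B cell surface protein CD20, stood at 1140 and 1520 CPM in control, 1640 and 1220 at 24 h, 818 and 999 at 3 days, and 950 and 944 at 7 days, so that all later libraries lay below all earlier ones. It was the 1 B cell gene of 9 to do so. SDC1, the gene of the plasma cell surface protein CD138, stood at 6.76 and 5.53 CPM in control, 5.73 and 6.88 at 24 h, 22.0 and 9.46 at 3 days, and 25 and 10.7 at 7 days, the 1 plasma cell gene of 6 with all later libraries above all earlier ones. Both were chosen after their values were seen, and over all genes 7.43% lay below in this way and 5.93% above. The median log2 fold changes of the 9 B cell genes were 0.06 at 3 days and -0.13 at 7 days. Those of the 6 plasma cell genes were 0 and 0.01. The summed level of 9 B cell genes was 5620 to 5920 CPM in control, 5170 to 5680 at 24 h, 4280 to 7180 at 3 days and 4500 to 6920 at 7 days. That of 6 plasma cell genes was 6100 to 7120, 5960 to 6240, 3730 to 7340 and 3820 to 6450. The summed level of 8 myeloid genes was 8.61 to 14.3 in control, 5.18 to 9.76 at 3 days and 5.43 to 8.39 at 7 days. For 7 stromal, endothelial or epithelial genes it was 5.02 to 7.12, 1.44 to 3.48 and 1.10 to 2.61. These 2 sums rested on few genes. Only ITGAM passed the filter on counts among the myeloid genes, and only COL1A1 and PECAM1 among the others. Mean levels in control, at 3 days and at 7 days were 10.9, 6.42 and 5.94 CPM for ITGAM. For COL1A1 they were 3.70, 0.594 and 0.673. The sums therefore do not describe cell types. The part of the marker genes in the levels of the 8 genes was not tested. Some reads could also belong to neighbours, since no strand setting is given. In the RefSeq table PHF19 overlaps TRAF1 (306 to 722 counts per library, against 797 to 2217 for TRAF1), and LOC100130476 overlaps TNFAIP3 (32 to 111 against 4106 to 8112). CFLAR-AS1 overlaps CFLAR and had 0 counts.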

How the data were processed

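Whole-number read counts per gene symbol were deposited by the authors, in 1 table per library and with replicates not pooled. Per the submitters' processing notes, the tools were Bowtie2, Trim Galore, SAMtools, R 3.2.3 and DESeq2 1.8.1, and the build was GRCh37 (hg19). Which counter, strand setting and annotation were used is not stated in the labels or tables. Each table held 23710 genes and 5 summary entries (42.6% to 57.5% of reads), which were left out. Replicates are separate biological replicates per the labels.

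Genes were kept with filterByExpr of edgeR 4.0.16 (minimum count 10, minimum total 15), leaving 12536. The quasi-likelihood test was fitted to all 8 libraries with TMM scaling, a coefficient per group and no covariate, and p-values were adjusted over all genes (Benjamini-Hochberg). Standard errors come from the F statistic. Log2 CPM used a prior count of 2. The fit was also run on simulated counts drawn independently for each library. Those counts lack the close pairs of libraries found here, so that run does not show how the fit behaves with such pairs. The members, lists, tests and alternatives were chosen with earlier results of these data known. All 8 genes are named; of each list, genes past the threshold and the 2 with the highest mean CPM, except a few that are not reported here. Other settings tried were DESeq2 1.42.0, limma-voom (limma 3.58.1), scaling by RLE or upper quartile, other filters, fits of 2 groups, the replicate number as a block, and libraries left out.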

Additional observations from a re-analysis of the deposited data

How the results depend on the processing

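Precision is limited by the spread between the 2 libraries of a group (common biological coefficient of variation 0.276). Each of the 8 genes had at least 132 counts in every library. For 24 h against control and for 7 against 3 days, 0 genes were called under every alternative. For 3 and 7 days against control, 0 became 9 and 15 with DESeq2 on all genes, 13 and 18 with DESeq2 on the genes edgeR tested (chosen after seeing the data), and 11 and 16 with no filter on counts. Without replicate 2 at both later times it became 334 and 374, a fit that leaves 1 library in each later group, assumed to vary like the others. None of the 8 genes was among these calls. The replicate number as a block gave 0 calls in each comparison and medians over the 8 genes of -0.94 at 3 days and -0.87 at 7 days; replicate differences correlated at 0.81 between 3 and 7 days, 0.34 and 0.32 between control and those groups, -0.60 between control and 24 h, and -0.32 and -0.31 between 24 h and the later groups. Same-numbered libraries thus deviated together at 3 and 7 days but in opposite directions at 24 h, and with 2 libraries per group the numbers were not taken to pair the samples. With the 24 h numbers crossed, chosen after seeing the data, 6 and 5 genes were called. Both scalings kept 7 of the 8 genes below control at 3 and at 7 days. The median over the 8 genes was -0.93 to -0.74 at 3 days, -0.87 to -0.61 at 7 days and 0.01 to 0.31 at 24 h with single libraries left out. Without replicate 1 at both later times it was -0.78 at 3 days, and without replicate 2 at both it was -0.79. TRAF1, TNFAIP2, TNFAIP3, BIRC3, CFLAR, MIR155HG and EBI3 had negative fold changes at 3 and 7 days under all 18 alternatives that gave values. For these 7 genes, leaving libraries out could hardly change the sign, since each later library lay below all earlier ones. The genes were also chosen with these differences known, so the shared sign is no further result. TNIP1 was negative in 2 of 18 at 3 days and 4 of 18 at 7 days.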
